A study of Drosophila melanogaster with 10 samples.

Results

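The 6 salivary glue genes listed as Sgs1, Sgs3, Sgs4, Sgs5, Sgs7 and Sgs8 were followed through 10 whole-larva RNA libraries of Drosophila melanogaster. They were taken by their exact gene symbols from 13995 genes, each symbol matched 1 record, and all 6 passed the filter on low values in every fit. The libraries came from male larvae of the 3rd instar kept at 25 °C, with 2 libraries for each of 5 genotypes. Abundance was given as FPKM, a measure of fragments that allows for the length of the transcript and the size of the library.

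The genotype called foxo/+ below was y w, atf3[76];;dfoxo[25J13]/+, and the one called rel/+ was y w, atf3[76];;rel[E20]/+. The genotype called atf3[A]/+ was y w, atf3[76];;atf3[A]/+, the one called atf3[76] was y w, atf3[76], and the control was y w. All 5 genotypes shared the y w background, and the first 4 shared atf3[76]. The third element was carried over a wild-type chromosome in foxo/+, rel/+ and atf3[A]/+. The labels gave neither the lesion of any allele nor the nature of atf3[A], and they placed the larvae in the instar without hours. Whether replicates came from separate cultures was not stated, so p-values measure the spread between these samples, which may be technical.

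Glue proteins are made in the salivary glands of the late third-instar larva, stored in secretory granules, and expelled at the onset of metamorphosis to fix the puparium to a surface. Their genes are switched on together in the gland during that instar by the steroid hormone ecdysone, with the gland factors fork head and sage, and they are shut off again by the large ecdysone pulse before pupariation. For this reason glue transcripts are used as a marker of progress through the third instar.

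Sgs1, Sgs3 and Sgs4 encode large or repeat-rich proteins of the glue, and Sgs3 and Sgs1 are mucin-like. Sgs5 encodes a protein without long repeats, and Sgs7 and Sgs8 encode small relatives of the ends of Sgs3. In the deposited coordinates, on the dm3 build, Sgs1 (FBgn0003372) lay on 2L from 4937408 to 4941424. Sgs8 (FBgn0003378, 3L from 11502066 to 11502494), Sgs7 (FBgn0003377, 3L from 11502960 to 11503347) and Sgs3 (FBgn0003373, 3L from 11505320 to 11506503) formed a cluster with gaps of 466 and 1973 bp. Sgs5 (FBgn0003375) lay on 3R from 13421083 to 13421834. Sgs4 (FBgn0003374) lay on X from 3143533 to 3145073, inside the span of dnc, which was listed at 1 in all 10 libraries. No strand setting of the counting is stated in the labels or headers, so reads of Sgs4 and of dnc could not be told apart.

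A value of 1 was the lowest in the tables and may stand for a failed estimate. Depth was read from the step size of low values, relative to the median step over the libraries. It was 0.653 in atf3[76] replicate 1, from 4 gene lengths, and 0.520 in y w replicate 1, from 6. The other libraries whose steps followed gene length like the rest lay between 0.959 and 1.02. The steps of foxo/+ replicate 2 gave 0.504, but they followed gene length differently from the rest, so this value was not taken as a depth. Whether that library was shallow too was not settled. The 2 libraries called shallow below are atf3[76] replicate 1 and y w replicate 1. In them 4.54% and 3.84% of genes that were well measured elsewhere were at the floor. In the other 8, foxo/+ replicate 2 included, it was 0.136% to 1.27%. The gene Atf3, listed as A3-3, had 6.09 to 15.1 FPKM in the 8 libraries that carry atf3[76], against 3.28 and 4.14 FPKM in y w. Gene-level values do not check an allele whose lesion is not given, so groups are named by their labels.

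Glue transcripts were abundant in all 5 genotypes, and their sum differed by 1.83 to 4.58 times between the 2 libraries of a genotype. The summed FPKM of the 6 genes was 4212 and 1101 in foxo/+, 2274 and 7450 in rel/+, 6577 and 2100 in atf3[A]/+, 1168 and 2139 in atf3[76], and 2453 and 536.0 in y w, replicate 1 before replicate 2. As a share of all FPKM in its library, the sum was highest in atf3[A]/+ replicate 1 (2.25%) and rel/+ replicate 2 (2.17%) and lowest in y w replicate 2 (0.180%). By mean, the summed level ran from rel/+ (4862 ± 3660 FPKM) through atf3[A]/+ (4338 ± 3165), foxo/+ (2656 ± 2200) and atf3[76] (1654 ± 687) to y w (1494 ± 1355, SD, n = 2 each), and every pair of neighbours in this order overlapped. In whole larvae, fewer or smaller glands and less RNA per gland cell cannot be told apart.

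**Figure D1:**
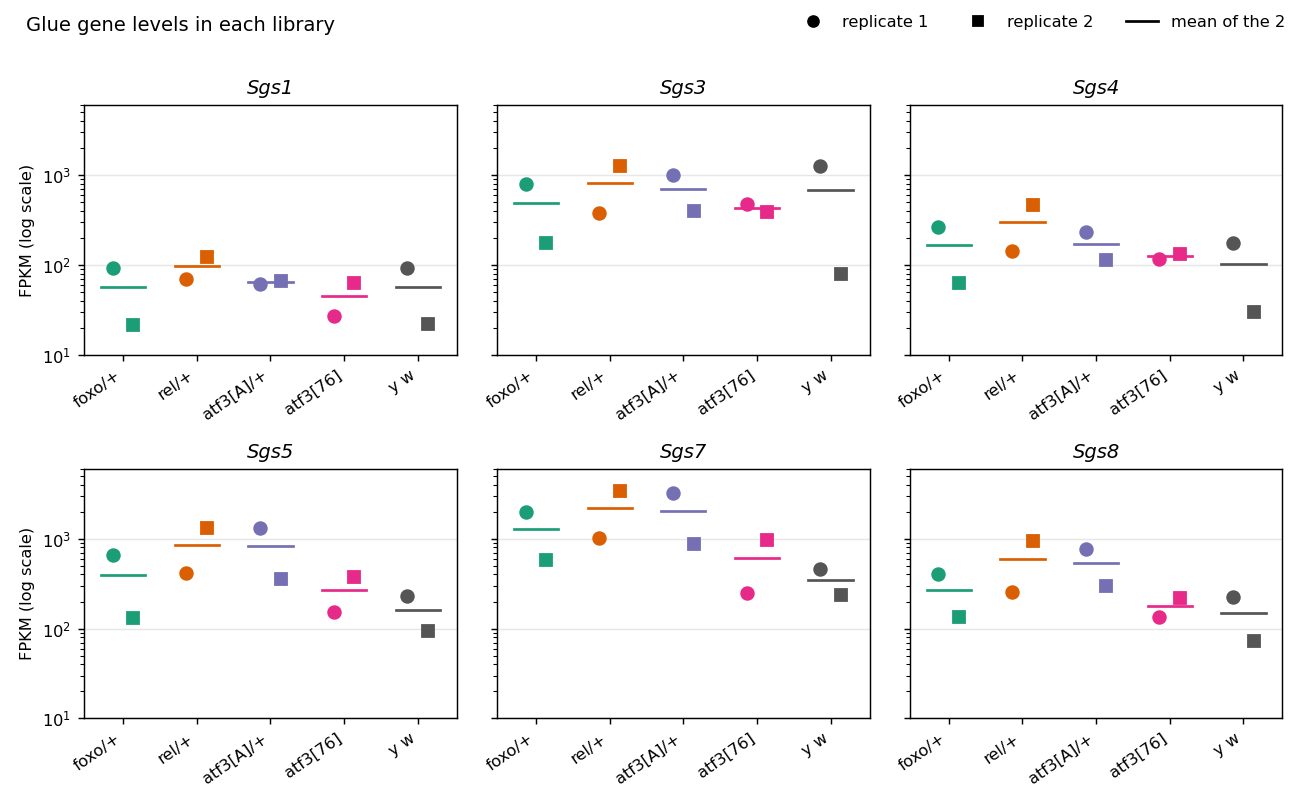
FPKM of each glue gene (log axis) in the 2 libraries of each genotype, with circles for replicate 1, squares for replicate 2 and a line at their mean. Sgs7 lay between 236.0 and 3361 FPKM and Sgs1 between 21.2 and 122 FPKM, and the 2 y w libraries stood 16.0 times apart in Sgs3.

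Sgs3, the mucin-like protein of the 68C cluster, had 806.7 and 175 FPKM in foxo/+, 375 and 1250.0 in rel/+, 1004 and 401 in atf3[A]/+, 483 and 388 in atf3[76], and 1271 and 79.6 in y w. Both its highest and its lowest library were y w, so the mutant values fell inside the control range. The highest was the shallow y w replicate 1. There Sgs3 made up 51.8% of the summed glue FPKM, against 14.9% to 19.2% in the 8 libraries not called shallow. Sgs1, the largest of the 6 by deposited span, had 92.1 and 21.2 FPKM in foxo/+, 70.6 and 122 in rel/+, 60.9 and 66.9 in atf3[A]/+, 27.0 and 63.8 in atf3[76], and 91.6 and 22.3 in y w. It was the least abundant member in every library. Sgs4 had 267 and 62.9 FPKM in foxo/+, 143 and 467 in rel/+, 232 and 112 in atf3[A]/+, 118 and 133 in atf3[76], and 174 and 30.2 in y w. No mutant genotype had both libraries of Sgs1, Sgs3 or Sgs4 above, or both below, the 2 of y w.

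Sgs7, the smallest and the most abundant by mean, had 1984 and 575 FPKM in foxo/+, 1020 and 3361 in rel/+, 3199 and 869 in atf3[A]/+, 249.7 and 957 in atf3[76], and 464 and 236.0 in y w. Both libraries of foxo/+, rel/+ and atf3[A]/+ were above both of y w, where 48.2%, 56.6% and 18.2% of all genes were. The atf3[76] libraries overlapped those of y w. Sgs8, which lies next to Sgs7, had 407 and 135 FPKM in foxo/+, 253 and 943 in rel/+, 777 and 295 in atf3[A]/+, 136 and 222 in atf3[76], and 225 and 73.7 in y w. Sgs5 had 656 and 132 FPKM in foxo/+, 413 and 1308 in rel/+, 1304 and 356 in atf3[A]/+, 155 and 377 in atf3[76], and 228 and 94.2 in y w. For Sgs5 and Sgs8, the rel/+ pair and the atf3[A]/+ pair were above both of y w, where 56.6% and 18.2% of all genes were. The foxo/+ and atf3[76] pairs overlapped y w. As for every member, the higher y w library was the shallow replicate 1.

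Genotypes that followed each other in the order of a member's mean overlapped in 23 of 24 cases. The exception was Sgs1, whose rel/+ libraries were above its atf3[A]/+ libraries. For 5 of the 6 members rel/+ replicate 2 was the highest library, and the exception, Sgs3, was highest in y w replicate 1. Sgs1 was lowest in foxo/+ replicate 2 and the other 5 were lowest in y w replicate 2. The highest library exceeded the lowest by 5.74 times for Sgs1, the narrowest range, and by 16.0 times for Sgs3, the widest.

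The difference between the 2 libraries of 1 genotype was large for glue genes and small for most genes. In foxo/+ all 6 were higher in replicate 1, by 3.02 to 4.96 times with a median of 4.29 times, where the median over all genes of at least 5 FPKM was 1.16 times between the higher and the lower library. Only 0.217% of those genes differed by as much as the members' median in foxo/+. In rel/+ all 6 were higher in replicate 2, by 1.73 to 3.73 times with a median of 3.28 times, which 0.533% of genes reached. In y w all 6 were higher in replicate 1, by 1.96 to 16.0 times with a median of 3.58 times, which 0.577% of genes reached. The direction was thus common to the 6 genes within each of these 3 genotypes. In atf3[A]/+ 5 of 6 were higher in replicate 1, with a median of 2.57 times that 1.32% of genes reached, and Sgs1 was 1.098 times higher in replicate 2. In atf3[76] 5 of 6 were higher in replicate 2, with a median of 1.997 times that 7.74% of genes reached, and Sgs3 was 1.246 times higher in replicate 1.

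Of the variance of log2(FPKM + 1), the part between genotypes was 57.1% for Sgs7, 51.8% for Sgs5, 51.7% for Sgs8, 32.2% for Sgs4, 26.2% for Sgs1 and 12.4% for Sgs3. The share expected from the degrees of freedom with no difference between genotypes is 44.4%. The median of the 6 was 42.0%, against 57.9% for all genes tested.

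The design compared each mutant genotype with y w, and these 4 comparisons share the 2 y w libraries. With limma on log2(FPKM + 1) and Benjamini-Hochberg adjustment over every gene that exceeded 1 in any library compared, 0 of 6 glue genes passed an adjusted p of 0.05 in any of them. The same test called 0.204% of 11274 genes in foxo/+, 0.537% of 11354 in rel/+, 0.370% of 11068 in atf3[A]/+ and 0.0364% of 10983 in atf3[76]. At an unadjusted p under 0.05 the members numbered 0 in foxo/+, 2 in rel/+ (Sgs5 and Sgs7), 3 in atf3[A]/+ (Sgs5, Sgs7 and Sgs8) and 0 in atf3[76]. Over all genes that share was 18.1%, 25.4%, 7.70% and 3.56% in the same order of genotypes.

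With the shallow libraries kept, Sgs7 had the largest fold change over y w among the members in foxo/+, rel/+ and atf3[A]/+. Without them Sgs3 had the largest in each of these, as given below. For Sgs7 the log2 fold change was 2.48 ± 0.69 (SE) in rel/+, with a 95% interval of 0.62 to 4.35 and an adjusted p of 0.159 by limma. In atf3[A]/+ it was 2.33 ± 0.70 (0.56 to 4.10, limma adjusted p = 0.592), and in foxo/+ it was 1.69 ± 0.69 (-0.11 to 3.48, limma adjusted p = 0.287). In atf3[76] it was 0.56 ± 0.74 (-1.38 to 2.50, limma adjusted p = 1.00). On this scale, on which the fold of a low gene is understated, the intervals of rel/+ and atf3[A]/+ lay above 0 before adjustment and none passed after it.

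Sgs5 followed with log2 fold changes of 2.32 ± 0.73 in rel/+ and 2.21 ± 0.74 in atf3[A]/+, with limma adjusted p of 0.172 and 0.621. Sgs8 had 1.92 ± 0.86 in rel/+ and 1.88 ± 0.70 in atf3[A]/+, with limma adjusted p of 0.232 and 0.640. In foxo/+ these 2 genes had 1.00 ± 0.87 and 0.86 ± 0.76, and in atf3[76] 0.72 ± 0.63 and 0.43 ± 0.62. The other 3 members had intervals that included 0 in each comparison. Sgs4 had 0.83 ± 1.07 in foxo/+, 1.81 ± 1.04 in rel/+, 1.14 ± 0.87 in atf3[A]/+ and 0.77 ± 0.84 in atf3[76]. For Sgs3 the SE was 1.32 to 1.49, wider than for any other member, and its log2 fold changes were 0.24, 1.098, 0.99 and 0.44 in the same order. For Sgs1 the log2 fold changes were -0.03, 1.02, 0.48 and -0.12.

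**Figure D2:**
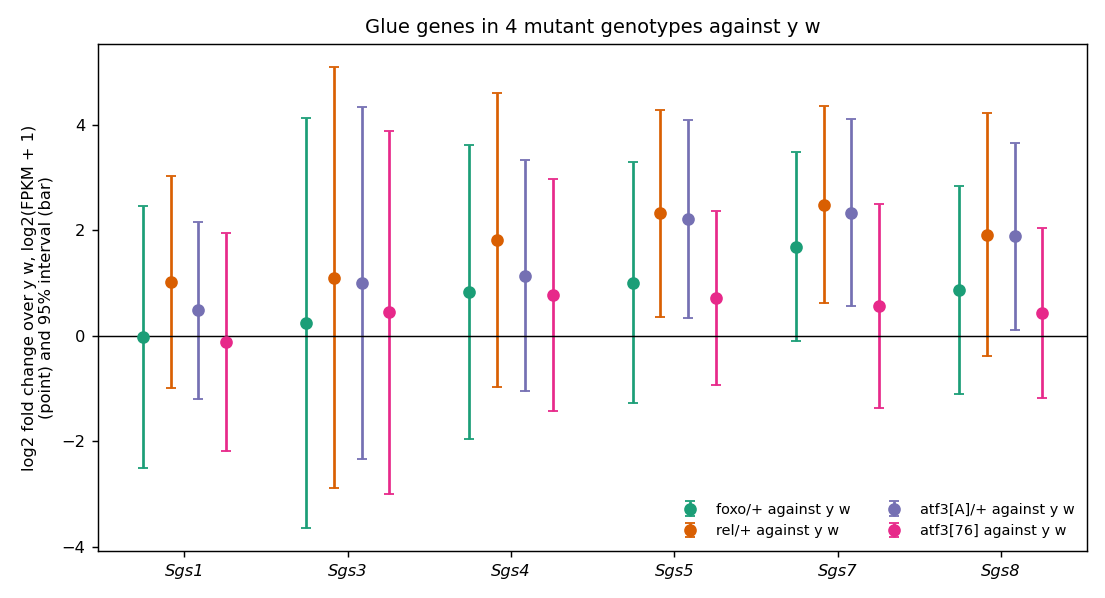
Log2 fold change of each glue gene over y w on the log2(FPKM + 1) scale (points) with its unadjusted 95% interval (bars), for foxo/+, rel/+, atf3[A]/+ and atf3[76]. The intervals of Sgs5 and Sgs7 in rel/+ and of Sgs5, Sgs7 and Sgs8 in atf3[A]/+ lie above 0, and no member passed the adjusted threshold.

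The median log2 fold change of the 6 members was 0.84 in foxo/+, 1.86 in rel/+, 1.51 in atf3[A]/+ and 0.50 in atf3[76]. The median over all genes tested was 0.32, 0.40, 0.0052 and 0.11. All genes together were thus shifted upward in foxo/+ and rel/+, and with the libraries centred on their medians Sgs3 in foxo/+ had a log2 fold change of -0.11. Sgs7 was the 1 member with both foxo/+ libraries above both y w libraries, where 48.2% of all genes were. In rel/+ Sgs5, Sgs7 and Sgs8 had both libraries above, where 56.6% of all genes were, and in atf3[A]/+ the same 3 were above, where 18.2% of all genes were. In atf3[76] 0 members were above, against 16.8% of all genes. A member with both libraries below both y w libraries was found in 0 comparisons, where all genes had 9.30% in foxo/+, 8.72% in rel/+, 17.6% in atf3[A]/+ and 5.73% in atf3[76].

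In the authors' deposited table Sgs7 was called up in foxo/+, with a fold of 3.66, where 21.9% of all records were called up. In the authors' deposited table for rel/+, Sgs5, Sgs7 and Sgs8 were called up with folds of 5.34, 6.26 and 4.01, where 28.6% of all records were. The authors' deposited table for atf3[A]/+ called the same 3 genes up with folds of 5.16, 5.82 and 3.59, where 7.38% of all records were. For atf3[76] the authors' deposited table called 0 members up, where 4.73% of all records were. Of the 24 member entries in the authors' deposited table, 7 were called up and 0 down, and the others were marked as not changed or as failing the authors' quality control. The authors' folds were negative for Sgs3 in foxo/+ (-1.38) and atf3[76] (-1.55) and for Sgs1 in atf3[76] (-1.25). For Sgs3 these differ in sign from the limma log2 fold changes of 0.24 and 0.44.

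Each of the 3 genotypes that add an element to atf3[76] was also set directly against atf3[76], in 1 limma model of all 10 libraries. Here too 0 of 6 members passed, where 11558 genes gave a share of 0.0519% for foxo/+, 0.0865% for rel/+ and 0.0779% for atf3[A]/+. At an unadjusted p under 0.05 the members also numbered 0 in each of these, where all genes had 5.38%, 7.41% and 8.01%. The largest difference was that of Sgs7 in rel/+, a log2 fold change of 1.92 ± 1.02 (-0.49 to 4.33, limma adjusted p = 0.485). In atf3[A]/+ Sgs7 had 1.77 ± 1.02 and in foxo/+ 1.13 ± 1.02. The median of the members was 0.19 for foxo/+, 1.31 for rel/+ and 1.03 for atf3[A]/+, beside 0.16, 0.24 and -0.10 for all genes. In the test for any difference among the 5 genotypes 0 of 6 members passed, with limma adjusted p of 0.410 to 0.941, where 0.407% of genes passed. None of the 6 had an unadjusted p under 0.05 in that test, against 14.7% of all genes.

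The make-up of the glue transcripts separated the 2 shallow libraries from the other 8. Sgs7 exceeded Sgs3 by 2.17 to 3.29 times in the 8, but stood at 0.517 of Sgs3 in atf3[76] replicate 1 and at 0.365 in y w replicate 1. The 3.29 was that of foxo/+ replicate 2, whose depth was not settled. Sgs3 made up 41.4% and 51.8% of the summed glue FPKM in those 2 libraries, against 14.9% to 19.2% elsewhere. Sgs7 made up 21.4% and 18.9% there, against 41.4% to 52.2% elsewhere. Over all 10 libraries Sgs1 held 0.926% to 4.16%, Sgs4 3.52% to 10.1%, Sgs5 9.29% to 19.8% and Sgs8 9.16% to 14.03%.

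**Figure D3:**
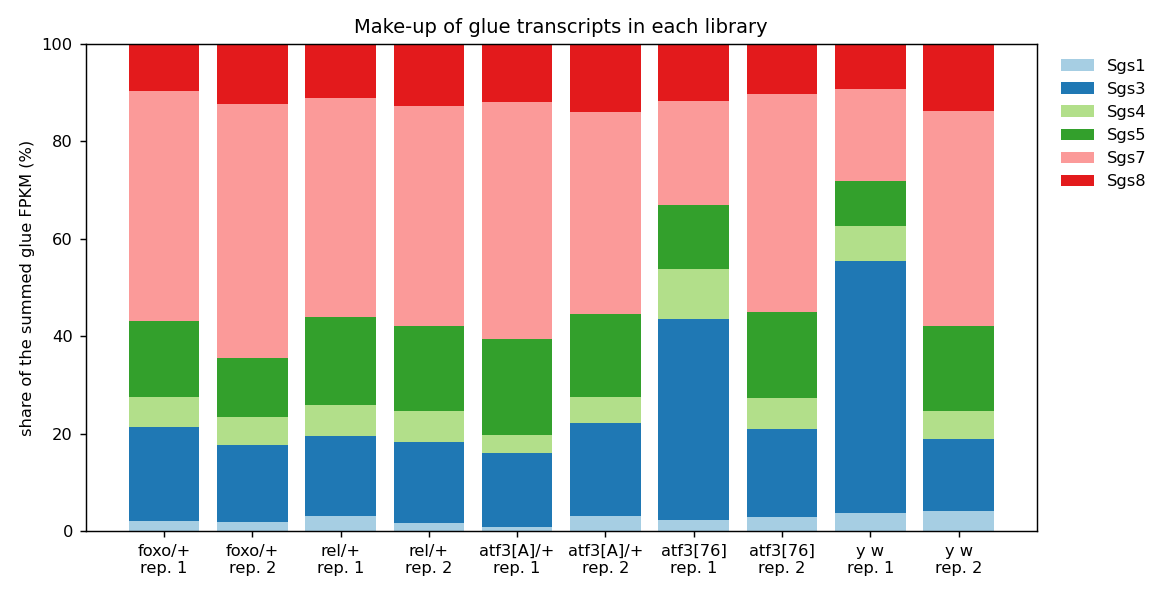
Share of each glue gene in the summed glue FPKM of each library, in percent. Sgs7 is the largest part in 8 libraries, and Sgs3 is the largest in replicate 1 of atf3[76] (41.4%) and of y w (51.8%).

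Other values moved with these 2 libraries. The summed FPKM of 14 measured midgut marker genes, which encode digestive proteases and sugar-cleaving enzymes, was 24540 in atf3[76] replicate 1 and 23711 in y w replicate 1, against 7666 to 12365 in the other 8. Most of it came from Jon99Ciii, with 9255 and 7502 FPKM there, and deltaTry, 1 of a family of similar trypsin genes, with 9930 and 9508. The other 12 genes summed to 5355 and 6701 FPKM in the 2 libraries, against 2272 to 4194 in the other 8. Gene by gene, 5 of 14 (Jon25Bi, Jon25Bii, Jon99Ciii, alphaTry and deltaTry) were higher in both shallow libraries than in each of the 8, and 0 were lower in both. Short genes were also lower in them relative to longer ones. In atf3[76] the median log2 ratio of replicate 1 over replicate 2 was -0.48 for 169 genes spanning 300 to 500 bp and 0.13 for 1865 genes spanning 1000 to 2000 bp. In y w it was -0.09 for 152 short genes and 0.34 for 1758 longer ones. In foxo/+, rel/+ and atf3[A]/+ the 2 length classes differed by less than 0.1. Sgs7, Sgs8 and Sgs5 span 387, 428 and 751 bp, and Sgs3, Sgs4 and Sgs1 span 1183, 1540 and 4016 bp. The shortest members, Sgs5, Sgs7 and Sgs8, are also those whose rel/+ and atf3[A]/+ pairs lay above both y w libraries. The part of depth, gut RNA or gene length in the glue values of these libraries was not tested.

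Without these 2 libraries each of atf3[76] and y w kept 1 library, and the spread came from the other genotypes. In this fit of 8 libraries the members' log2 fold changes over y w were 0.97 to 2.23 in foxo/+, 2.01 to 3.09 in rel/+, 1.48 to 2.98 in atf3[A]/+ and 1.48 to 2.27 in atf3[76], all above 0. The highest in foxo/+, rel/+ and atf3[A]/+ (2.23, 3.09 and 2.98) was that of Sgs3, where Sgs7 was highest with all libraries kept. The median of the members in atf3[76] was then 2.002, against 0.50 with all libraries. The lowest limma adjusted p of a member was 0.265, 0.152, 0.495 and 0.630 in that order of genotypes. Against atf3[76] the medians were -0.04 for foxo/+, 0.95 for rel/+ and 0.75 for atf3[A]/+. The single y w library left in this fit, replicate 2, is the one with the lowest glue level of all 10.

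Across the 10 libraries the 6 genes varied together. Over their 15 pairs Pearson's r of log2(FPKM + 1) was 0.63 to 0.98 with a median of 0.81, and Spearman's rho was 0.44 to 0.96 with a median of 0.81. By permutation tests of 100000 resamples, adjusted over the 15 pairs, the Pearson p was 0.0003 to 0.0464 and the Spearman p was 0.0006 to 0.203. These permutations treat the 10 libraries as interchangeable, although they are 5 genotypes of 2, and all genes of a library share its depth and scaling. The lowest Pearson r was that of Sgs3 with Sgs7. Leaving out the 2 libraries farthest from the median of the first gene of a pair gave r of 0.54 to 0.97. Without the 2 shallow libraries r was 0.82 to 0.99, and for Sgs3 with Sgs7 it was 0.99. Within genotypes, with 2 libraries each, no r can be had, but set against the sum of the other 5 members, Sgs4, Sgs5, Sgs7 and Sgs8 moved in its direction in 5 of 5 genotypes and Sgs1 and Sgs3 in 4 of 5.

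Among 8787 other genes that were above 1 in at least 5 libraries and reached 5 FPKM in 1, the median Pearson r with the mean of the 6 members over the 10 libraries was 0.38. It was above 0.9 for 49 genes and below -0.9 for 4. All values of a library share its RNA, depth and scaling, and these r are descriptions. The 10 genes most like the members were CG34279 (r = 0.96), CG31698 (0.96), sage (0.96), CG13893 (0.96), CG7342 (0.96), CG9664 (0.95), Pxd (0.95), yellow-f (0.95), nimC2 (0.95) and Cpr49Ac (0.94). Each of the 10 was lowest in y w replicate 2 and highest in rel/+ replicate 2 or atf3[A]/+ replicate 1. CG34279, CG13893, Pxd, yellow-f and nimC2 overlap other genes in the deposited coordinates, so their reads may be shared.

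The gene sage encodes a transcription factor of the salivary gland that acts with fork head on glue genes. It had 16.5 and 9.40 FPKM in foxo/+, 11.7 and 21.0 in rel/+, 20.8 and 10.7 in atf3[A]/+, 6.34 and 11.3 in atf3[76], and 13.7 and 4.49 in y w. In each genotype it was higher in the library with more glue transcript. That agreement in 5 of 5 genotypes was shared by 18.0% of the 8787 genes, and the opposite direction in 5 of 5 by 1.74%. The other gland factors and enzymes followed the glue level less closely in r. Of 10 listed, sage included, 8 were above 1 in at least 1 library and Scr and hth were listed at 1 in all. The median r of the 7 that could be read, sage included, was 0.43. Among them exd had r = 0.43, CrebA r = 0.54 and pip r = -0.61. In atf3[76] replicate 1 exd was listed at 1, which may be a failed estimate, against 14.8 to 31.4 FPKM elsewhere.

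**Figure D4:**
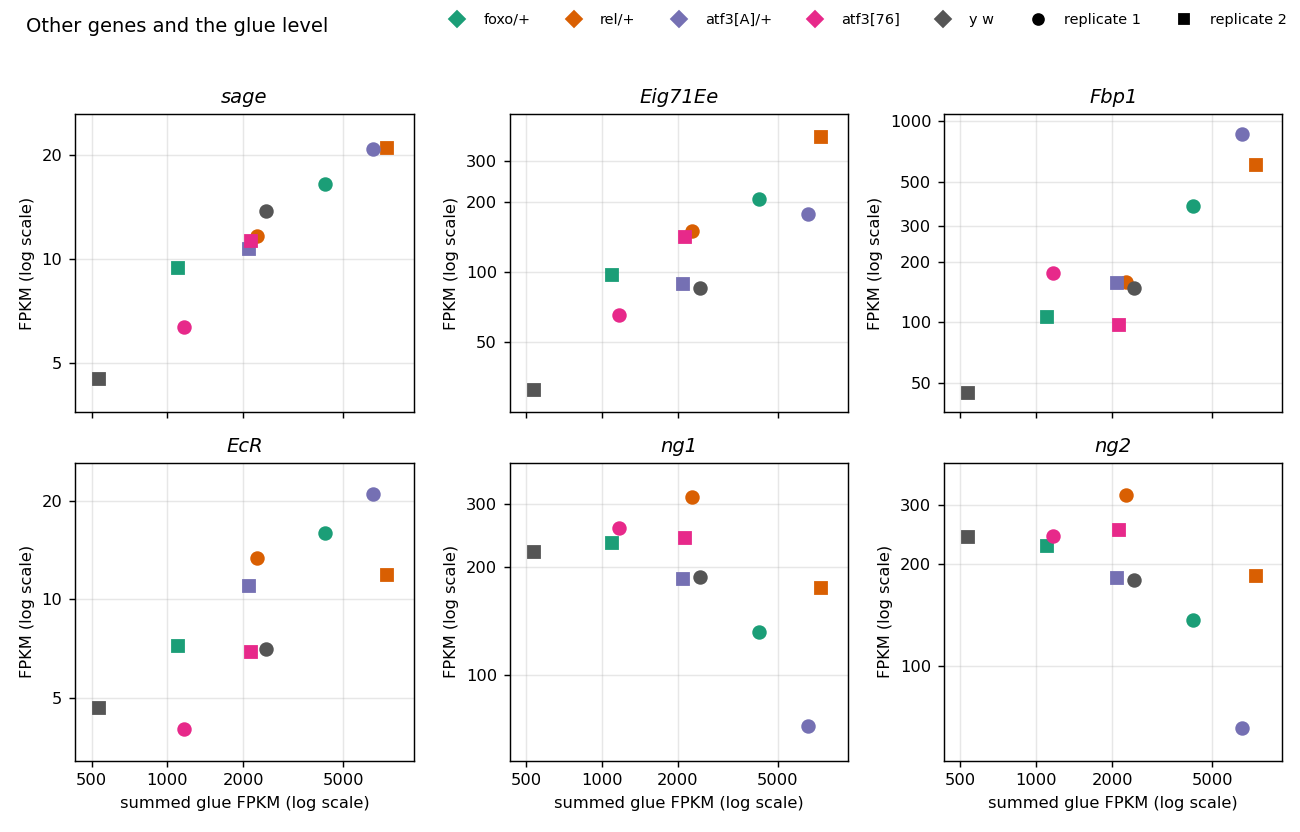
FPKM of sage, Eig71Ee, Fbp1, EcR, ng1 and ng2 against the summed FPKM of the 6 glue genes in the 10 libraries, both on log axes, with 1 colour for each genotype and circles and squares for replicates 1 and 2. The first 4 genes are lowest or near lowest where glue is lowest, and ng1 and ng2 are lowest in atf3[A]/+ replicate 1, at 71.9 and 65.4 FPKM.

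Other secreted products of the gland did not all follow the glue genes. Eig71Ee, an ecdysone-induced gene of the 71E puff, had 206 and 97.6 FPKM in foxo/+, 150.5 and 382 in rel/+, 178 and 88.8 in atf3[A]/+, 65.5 and 141 in atf3[76], and 85.4 and 31.2 in y w, with r = 0.91. Like sage, it moved with the glue sum in 5 of 5 genotypes. The genes ng1, ng2 and ng3 are gland-expressed neighbours of Sgs4, 6566 to 8929 bp from it, and also lie inside dnc. Their summed level was 401 and 666 FPKM in foxo/+, 978 and 576 in rel/+, 243 and 514 in atf3[A]/+, 818 and 684 in atf3[76], and 614 and 620 in y w. In all 5 genotypes this sum was lower in the library with more glue transcript, by little in y w. Gene by gene, this held in 5 of 5 genotypes for ng1 and in 4 of 5 for ng2 and for ng3. In y w, ng3 went with the glue sum, at 247 and 159 FPKM. The r with the glue mean was -0.58 for ng1, -0.57 for ng2 and -0.25 for ng3. The similar genes ng1 and ng2 may share reads, and their levels differed by less than 10% in all 10 libraries.

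The ratio of summed glue to summed ng1 to ng3 spanned 0.865 to 27.1. It was 10.5 and 1.65 in foxo/+, 2.32 and 12.9 in rel/+, 27.1 and 4.09 in atf3[A]/+, 1.43 and 3.13 in atf3[76], and 3.995 and 0.865 in y w. Both atf3[A]/+ libraries were above both of atf3[76] and both of y w in this ratio, by little for replicate 2 against y w replicate 1. The foxo/+, rel/+ and atf3[76] libraries overlapped those of y w. Of the 16 genes in this list, 9 were above 1 in at least 1 library, and 0 were called in any of the comparisons.

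Genes of the ecdysone response were described with the glue genes because the hormone switches them. Of 25 listed, 20 were above 1 in at least 1 library, 12 of 14 with a readable r had a positive one, where 77.5% of the 8787 genes did, and the median r was 0.68, where that of the 8787 was 0.38. Eip71CD had r = 0.87, ImpL2 r = 0.68, Edg91 r = -0.10 and ImpL3, a lactate dehydrogenase, r = -0.31. EcR, the ecdysone receptor, which was picked after its values were seen, had 16.0 and 7.19 FPKM in foxo/+, 13.3 and 11.9 in rel/+, 20.9 and 11.0 in atf3[A]/+, 4.02 and 6.89 in atf3[76], and 7.08 and 4.66 in y w, with r = 0.80. Both EcR libraries of foxo/+, rel/+ and atf3[A]/+ were above both of y w, where 48.2%, 56.6% and 18.2% of all genes were. In foxo/+ the gap was small, 7.19 against 7.08 FPKM. EcR overlaps CG14589 in the deposited coordinates, so its reads may be shared.

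The 1 gene of this list that passed the threshold was br, which encodes the Broad factors of the ecdysone cascade. It had 12.5 and 13.2 FPKM in rel/+, against a listed 1 in each y w library (limma adjusted p = 0.0205). It had 22.0 and 5.90 FPKM in foxo/+, 23.3 and 10.04 in atf3[A]/+ and 1 and 5.75 in atf3[76], and did not pass there. The gene br overlaps Mur2B, and a listed 1 may be a failed estimate, so no fold is given. Of 13 genes of ecdysteroid synthesis and clearance, 11 were above 1 in at least 1 library and 0 were called, and 6 of 7 with a readable r had a positive one, which is near the share over all genes. Of its 4 most abundant genes, shd, which makes the active hormone, had r = 0.77, and Npc1a, spok and phm had r of 0.50, 0.41 and 0.58. In atf3[76] replicate 1 Npc1a was listed at 1, which may also be a failed estimate.

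Larval serum proteins are made by the fat body and also rise in the third instar. Lsp2 had 2031 and 1476 FPKM in foxo/+, 1437 and 1848 in rel/+, 2277 and 1470 in atf3[A]/+, 1094 and 1487 in atf3[76], and 2273 and 529 in y w, with r = 0.82. The 3 Lsp1 genes had r of 0.13 for Lsp1alpha, -0.26 for Lsp1beta and -0.22 for Lsp1gamma. Fbp1, the fat body receptor for serum proteins, and Fbp2 were picked after their values were seen and had r of 0.90 and 0.92. Fbp1 had 377 and 106 FPKM in foxo/+, 159 and 603 in rel/+, 865 and 156 in atf3[A]/+, 175 and 96.5 in atf3[76], and 148 and 44.5 in y w. Within genotypes, Fbp2 and Lsp2 moved in the direction of the glue sum in 5 of 5, Fbp1, Lsp1alpha and Lsp1gamma in 4 of 5 and Lsp1beta in 2 of 5. Over the 10 genes of this list the median r was -0.047, with 5 positive and 5 negative, so the list as a whole did not follow the glue genes. None of the 10 was called.

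Markers of other tissues gave median r of -0.48 for 11 readable muscle genes, -0.11 for 14 midgut genes, 0.49 for 2 nervous system genes, 0.49 for 5 imaginal disc genes and 0.41 for 6 O-glycosylation enzymes, which attach the sugars of mucins. The defining muscle genes Mhc, up and wupA were listed at 1 in all libraries. The imaginal disc gene dpp passed the test for any difference among genotypes (limma adjusted p = 0.0357). It had 3.60 and 3.10 FPKM in foxo/+, 3.37 and 2.89 in rel/+ and 2.50 and 2.70 in atf3[A]/+, and was listed at 1 in all libraries of atf3[76] and y w. A listed 1 may be a failed estimate, and it leaves no spread within those genotypes. No other gene of these 5 lists was called in any comparison. The part of other tissues in the glue values was not tested.

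Of 20 genes within 10 kb of a member, 16 reached 5 FPKM in some library and 3 were listed at 1 in all. Among those with the highest r, CG7606, 423 bp from Sgs5, had 31.3 to 163 FPKM with r = 0.92, and CG7587, 300 bp from Sgs5 and named Sgs5bis in RefSeq, had 18.0 to 89.5 FPKM with r = 0.82. Near Sgs1, hoe2 at 826 bp had r = 0.84, while hoe1, betaggt-I, jet, mRpL24 and Jon25Biii had r of -0.41 to 0.29. Around the 68C cluster, Mob2, Fuca and CG11714 had r of 0.71, 0.46 and 0.48. Near Sgs4, Pig1 at 211 bp had 25.4 to 69.8 FPKM with r = -0.33. Near the far end of the window of Sgs5, sll had r = 0.52.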

How the data were processed

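Whole male third-instar larvae gave total RNA, and reads were mapped with TopHat 1.3.2 and summarised with Cufflinks 1.1.0, per the submitters' processing notes, on dm3. No annotation, strand setting or filter is stated in these labels or headers. The deposited tables, 1 per mutant genotype with the same y w columns in each, hold FPKM per gene from the authors, with 1 as the lowest value. They also hold the authors' signed fold change score and call, which were copied only where named. Relative depth was read from the spacing of low FPKM. FPKM keep no counts, so no counting interval or detection limit is given.

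Each symbol was represented by its record of highest mean. FPKM were taken as log2(FPKM + 1) and fitted with limma 3.58.1 in R 4.3.3 over every gene that exceeded 1 in any library compared, 2 groups at a time against y w, and with 5 groups for contrasts against atf3[76] and the test among genotypes. The fits were tested on simulated data. Correlations used scipy 1.17.1. Members and the 10 other gene lists were chosen with earlier results of these data known. Of each list, genes past the threshold and at most 4 of highest mean were named, with the 10 genes of highest r and neighbours reaching 5 FPKM. Alternatives covered pseudocounts, filters, scaling, the groups in a fit, a replicate block and left-out libraries. No sequence is printed because no table of the files' build was at hand.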

Additional observations from a re-analysis of the deposited data

How the results depend on the processing

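Of 546 values of the members under the alternatives, 505 kept direction and side of the threshold, 5 passed it only under the alternative and 36 changed sign. Glue genes passed the threshold under 1 setting only, with genes kept if above 1 in every library of the fit: 2 in rel/+ against y w (Sgs5 and Sgs7, limma adjusted p of 0.0411 and 0.0293) and 3 in atf3[A]/+ against y w (Sgs5, Sgs7 and Sgs8, limma adjusted p of 2.37e-06, 4.75e-07 and 0.000138). By construction that filter removes every gene listed at 1 in a library of the fit, whether a failed estimate or not. The prior degrees of freedom of limma were 9.08 and infinite there, against 2.34 and 3.25 in the fits reported. Over the other alternatives 0 members passed. With median centring the log2 fold change reversed for Sgs3 in foxo/+ against y w (-0.11) and for Sgs1 and Sgs4 in foxo/+ against atf3[76] (-0.10 and -0.14). Without the 2 shallow libraries it reversed for Sgs1 in foxo/+ and atf3[76] against y w (0.97 and 1.48) and for Sgs1, Sgs4 and Sgs5 in foxo/+ against atf3[76] (-0.51, -0.033 and -0.35). The cause was not tested. Leaving out 1 library at a time gave the following ranges where a sign changed. In foxo/+ against y w these were -1.06 to 1.00 for Sgs1, -1.75 to 2.23 for Sgs3, -0.42 to 2.07 for Sgs4 and -0.15 to 2.15 for Sgs5. In rel/+ against y w the range was -0.89 to 3.09 for Sgs3. In atf3[A]/+ against y w they were -0.51 to 1.48 for Sgs1, -1.002 to 2.98 for Sgs3 and -0.11 to 2.38 for Sgs4. In atf3[76] against y w they were -1.12 to 0.87 for Sgs1, -1.55 to 2.43 for Sgs3, -0.47 to 2.01 for Sgs4, -0.40 to 1.53 for Sgs7 and -0.37 to 1.22 for Sgs8. In foxo/+ against atf3[76] they were -0.94 to 1.13 for Sgs1, -1.30 to 0.90 for Sgs3, -0.98 to 1.09 for Sgs4, -0.87 to 1.44 for Sgs5 and -0.36 to 1.23 for Sgs8. In rel/+ and atf3[A]/+ against atf3[76] they were -0.21 to 1.53 and -0.11 to 1.21 for Sgs3, and for Sgs4 in atf3[A]/+ -0.15 to 0.89. Counts over all genes moved widely, with 23 called in foxo/+ against y w (0 to 225 over the alternatives, and 0 to 184 with 1 library left out), 61 in rel/+ (14 to 314, and 0 to 236), 41 in atf3[A]/+ (0 to 170, and 0) and 4 in atf3[76] (0 to 51, and 0).

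With the replicate block 0 members passed in any comparison. Over the 10 pairs of genotypes the r of same-numbered libraries' deviations from their group means was -0.51 to 0.59, with 0.57 for atf3[76] and y w, whose replicate 1 libraries are the shallow ones. The sign was not common to all pairs and the labels tie the numbers to no batch, so the replicates were not taken as paired. With 2 libraries a genotype, and 1 shallow library in each of atf3[76] and y w, a difference in a glue gene smaller than about the spread shown by its unadjusted interval could not be seen here. Some larger differences did not pass after adjustment either, such as Sgs7 in rel/+ against y w (2.48, interval 0.62 to 4.35, limma adjusted p = 0.159).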
